A study of Mus musculus with 6 samples.

Results

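Guanylate-binding proteins (GBPs) and immunity-related GTPases (IRGs) are 2 families of interferon-inducible GTPases. The genes described here were 10 of the 54532 genes in the deposited table, matched by symbol: the GBP genes Gbp2, Gbp3, Gbp5, Gbp6, Gbp7 and Gbp9 and the IRG genes Irgm1, Irgm2, Igtp and Iigp1. They were measured by RNA sequencing in immortalized cardiosphere-derived cells (iCDCs in the labels, iECDCs in the methods), a line grown from explants of the ventricular epicardium of adult C57BL/6 mice and kept dividing by a lentiviral hTERT transgene, which both groups carried. The control group held 3 libraries of untreated iCDCs at passage 30. The induced group held 3 libraries of passage 30 cells given 10 µM 5-azacytidine, a DNA methyltransferase inhibitor used here to start cardiac differentiation, for 3 days and then, by the labels, 4 weeks of IMDM with 2% serum. The methods give another basal medium and a shorter culture for this induction. They describe routine growth of the line in explant medium with more serum than the induction medium, and give no time in culture for the sequenced control cells, so effects of drug, serum and time cannot be told apart. The replicates were described as separate samples of 1 line, without saying whether they were separate cultures, so the p-values measure the spread between these samples. The labels list 3 samples in each group, whereas the methods state a smaller number of replicates for each condition, and the 3 are treated as replicates here.

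GBPs and IRGs bind and hydrolyse GTP and assemble on membranes, where they attack the vacuoles of intracellular parasites and bacteria. The IRG family has regulators, which keep effector IRGs inactive on the cell's own membranes, and effectors, which load onto the pathogen vacuole. In mice both families are induced by interferon gamma and, for many members, by type I interferons, through transcription factors that bind 2 kinds of DNA motif, the gamma-activated site (GAS) and the interferon-stimulated response element (ISRE).

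The libraries held 19041133 to 19823369 counted reads, and reads of 19591 to 20501 genes. Where a library shows no read of a gene, up to 3 reads remain possible, which is 0.151 to 0.158 CPM (counts scaled to library size) and covers counting error only. Marker genes of cardiosphere-derived and epicardial cells were all read, with 850.6 to 861.7 CPM summed over the 7 genes in the control libraries and 1582 to 1737 CPM in the induced ones. Most of that rise came from Upk3b, an epicardial gene, at 253.7 ± 0.673 CPM in control and 941.1 ± 62.9 CPM in induced libraries (mean ± SD, n = 3). The epicardial factors Wt1 (log2 1.34) and Tcf21 (1.49) and the surface marker Thy1 (0.54) rose as well, and Ly6a (Sca-1, -0.57) and Tbx18 (-0.33) fell. CD105 (Eng), a defining surface marker of these cells, averaged 360.0 ± 0.336 and 392.5 ± 13.0 CPM, a difference that lost its call in 6 alternatives.

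The promoter table from RefSeq (build GRCm38.p6) held 8 windows for 7 of the 10 genes, each running from 250 bases before a transcript start to 50 bases after it. It listed none for Gbp6, Gbp9 and Iigp1. The ISRE core, searched on both strands as GAAA, any 2 bases and GAAA, was found in 7 of the 8 windows, against 3.44% of all 32851 windows in the table. The GAS motif, searched as TTCNNNGAA, which reads the same on both strands, was found in 4 of the 8 windows, against 8.30% of all. Both motifs together were in 4 of the 8 windows, against 0.454% of all. The motif-bearing sequences upstream of the start are shown for 5 genes, because they hold the letters that interferon-activated factors are known to recognise. Bases inside annotated exons are left out, and capitals mark the ISRE core and GAS matches:
Gbp3, chr3:142559794-142560025, plus strand: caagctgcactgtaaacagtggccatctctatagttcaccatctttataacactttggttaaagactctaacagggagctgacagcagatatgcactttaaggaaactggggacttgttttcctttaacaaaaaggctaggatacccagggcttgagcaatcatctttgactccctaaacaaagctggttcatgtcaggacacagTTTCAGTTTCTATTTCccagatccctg
Gbp5, chr3:142496684-142496899, plus strand: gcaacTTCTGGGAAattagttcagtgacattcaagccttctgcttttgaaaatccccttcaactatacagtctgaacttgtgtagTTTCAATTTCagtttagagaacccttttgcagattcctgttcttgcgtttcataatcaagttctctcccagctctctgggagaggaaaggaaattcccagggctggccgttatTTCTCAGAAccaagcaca
Gbp7, chr3:142530086-142530335, plus strand: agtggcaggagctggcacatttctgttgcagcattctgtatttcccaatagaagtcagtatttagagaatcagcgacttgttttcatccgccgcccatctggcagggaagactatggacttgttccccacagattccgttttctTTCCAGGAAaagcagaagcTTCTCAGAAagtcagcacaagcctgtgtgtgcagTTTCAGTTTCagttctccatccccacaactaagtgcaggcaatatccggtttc
Igtp, chr11:58199306-58199555, plus strand: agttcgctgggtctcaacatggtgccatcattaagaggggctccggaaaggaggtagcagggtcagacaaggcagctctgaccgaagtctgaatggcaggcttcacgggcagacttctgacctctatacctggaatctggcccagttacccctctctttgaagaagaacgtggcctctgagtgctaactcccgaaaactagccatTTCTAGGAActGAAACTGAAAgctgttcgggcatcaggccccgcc
Irgm2, chr11:58214727-58214976, plus strand: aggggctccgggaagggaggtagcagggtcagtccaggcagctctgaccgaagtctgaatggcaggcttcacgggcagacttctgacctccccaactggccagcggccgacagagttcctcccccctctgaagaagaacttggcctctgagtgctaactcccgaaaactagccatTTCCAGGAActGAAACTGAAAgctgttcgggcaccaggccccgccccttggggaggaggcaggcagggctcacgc

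In the Gbp3 sequence the run of capitals is 2 ISRE cores that overlap, starting 45 and 39 bases before the transcript start, with no GAS match. A second annotated start of Gbp3, the eighth window, held neither motif. The Gbp5 and Gbp7 sequences each carry 2 GAS matches and 1 ISRE core. The Igtp and Irgm2 sequences were nearly the same around their motifs: 73 of 75 aligned bases were identical, starting 79 bases before the Igtp start and 109 bases before the Irgm2 start, and each has a GAS match closely followed by an ISRE core. The windows of Gbp2, with 1 ISRE core 59 bases before the start, and of Irgm1, with overlapping cores 30 and 24 bases before it, had their matches inside annotated exons and are not printed. The 8 windows held 2 to 11 CG dinucleotides, against a median of 7 over all windows, and 3 of the 8 held at most 4, against 38.0% of all. A match is a description of these letters and not evidence of binding.

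**Figure D1:**
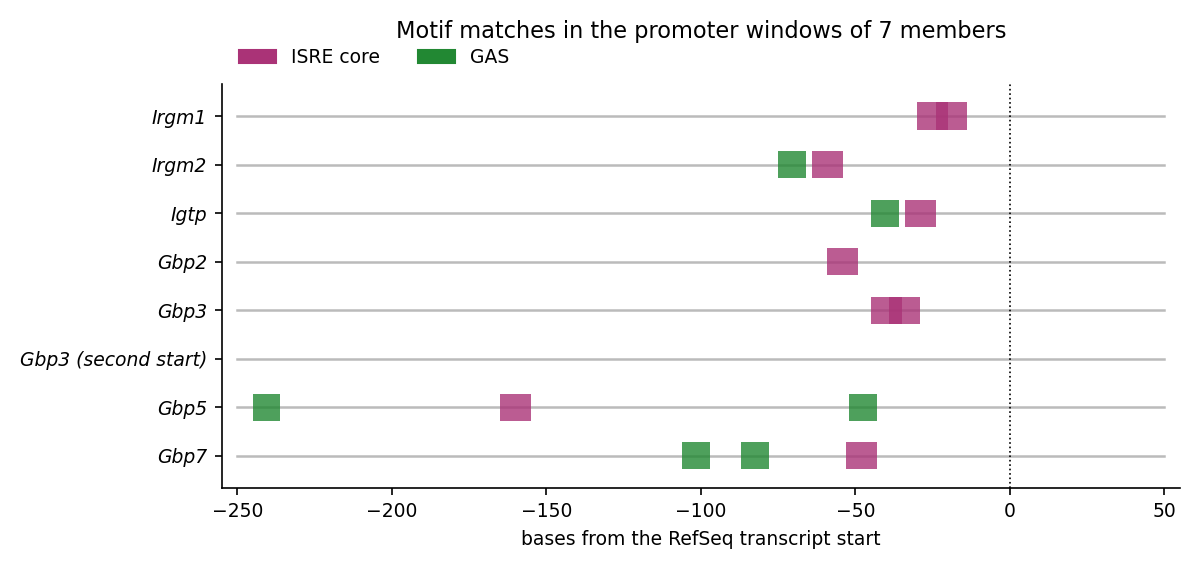
Positions of ISRE core (purple) and GAS (green) matches in the 8 RefSeq promoter windows of 7 genes, in bases from the transcript start (0, dotted line), with negative values upstream. All windows but that of the second Gbp3 start hold an ISRE core, and 4 windows hold both motifs.

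All 10 genes rose in induced cells. In the edgeR quasi-likelihood test across 14246 genes, 10 of the 10 passed a Benjamini-Hochberg adjusted p of 0.05 with a higher level in induced cells, where 32.6% of all tested genes were called higher, 32.2% lower and 64.8% either way. At least 2-fold increases were called for 9 of the 10, against 9.29% of all tested genes. Fitted rises were largest for Gbp3, Iigp1 and Igtp, with the Igtp interval overlapping that of Gbp6. The groups did not overlap for 9 of the 10, with every induced library above every control library, against 34.1% of all tested genes. The median log2 fold change was 1.47 over the 10 genes and -0.01 over all tested genes. The median was 1.83 over the 4 IRG genes and 1.17 over the 6 GBP genes, with ranges that overlapped, from 1.33 to 3.08 and from 0.75 to 3.41. In bulk RNA, more cells that express a gene and more RNA per cell cannot be told apart.

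**Figure D2:**
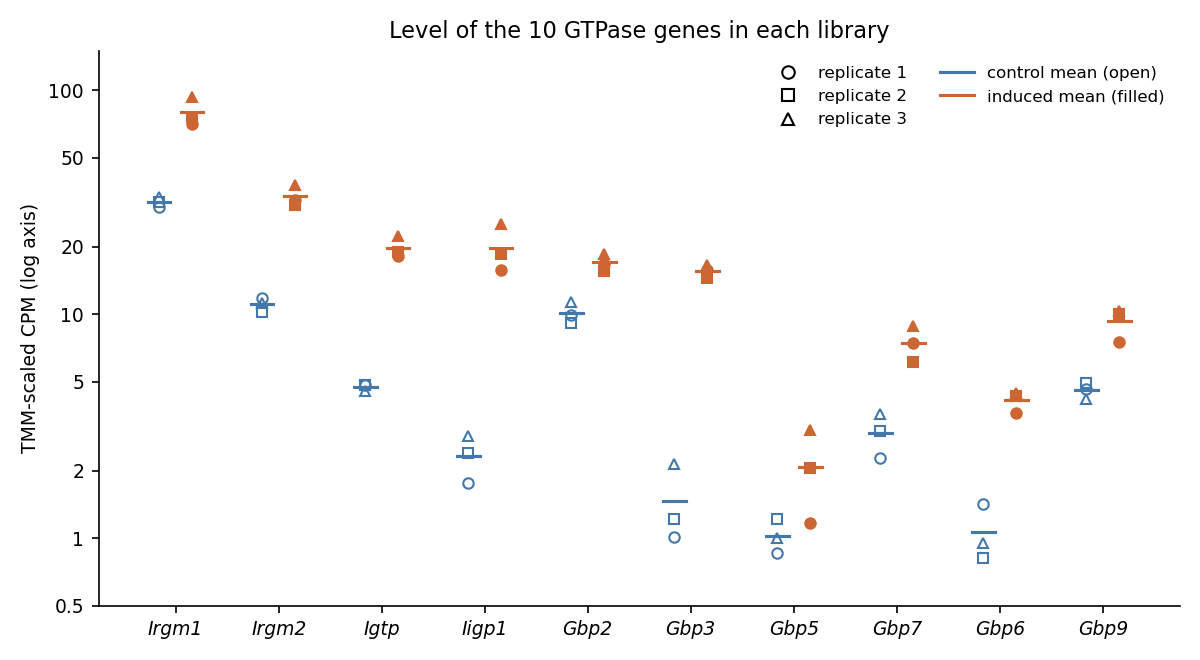
TMM-scaled CPM (log axis) of the 10 genes in each of the 3 control (open, blue) and 3 induced (filled, orange) libraries, with horizontal lines at group means and a symbol for each replicate number. The groups are separate for every gene but Gbp5, where induced replicate 1 lies among the control libraries.

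Irgm1, Irgm2 and Igtp (also called Irgm3) are the regulators of the IRG family. Irgm1 (ENSMUSG00000046879, chr11:48861968-48871683, minus strand) was read at 30.2, 31.6 and 33.5 CPM in control replicates 1 to 3 and at 70.4, 75.7 and 93.0 CPM in induced replicates 1 to 3. Every induced library was well above every control library. The log2 fold change was 1.33 ± 0.08 (SE), a 2.51-fold rise with an edgeR adjusted p of 1.07e-10.

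Irgm2 (ENSMUSG00000069874, chr11:58199618-58222782, plus strand) stood at 11.8, 10.2 and 11.2 CPM in the control libraries and at 32.3, 30.7 and 37.9 CPM in the induced ones. The groups were far apart, and the rise was 1.60 ± 0.09 on the log2 scale (edgeR adjusted p 4.05e-11). Igtp (ENSMUSG00000078853, chr11:58199556-58207591, plus strand) was at 4.81, 4.84 and 4.55 CPM in control and at 18.1, 19.0 and 22.3 CPM in induced libraries. Its control values were the tightest of the 10 genes relative to their mean, and it rose 4.18-fold (log2 2.06 ± 0.11, edgeR adjusted p 1.82e-11). The annotated Igtp and Irgm2 loci overlap on the same strand, with 8.01% of Igtp and 4.39% of Irgm2 exon bases in common and 109 identical windows of 100 bases, so how reads were divided between them is uncertain. Summed over both genes, an alternative added after the data were seen, the level went from 15.8 ± 0.796 to 53.5 ± 5.86 CPM (mean ± SD, n = 3) and the log2 fold change was 1.76 ± 0.08 (edgeR adjusted p 1.34e-12).

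Iigp1 (Irga6), an effector IRG that loads onto the Toxoplasma vacuole, was with Gbp3 one of the most raised of the 10, and their intervals overlapped. Iigp1 (ENSMUSG00000054072, chr18:60376029-60392627, plus strand) was at 1.77, 2.39 and 2.85 CPM in control replicates 1 to 3 and at 15.8, 18.5 and 25.3 CPM in induced replicates 1 to 3. The groups did not overlap, although the induced libraries spread widely, with an SD of 4.90 CPM around a mean of 19.9. The fitted increase was 8.46-fold (log2 3.08 ± 0.19, edgeR adjusted p 6.24e-11). No window of 100 bases of its transcripts was shared with another gene, and the same was true of Irgm1 and Gbp2.

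Gbp2, Gbp3, Gbp5 and Gbp7 lie in 1 cluster of 144.0 kb on chromosome 3. Gbp3 (ENSMUSG00000028268, chr3:142560026-142573209, plus strand) had the highest fitted rise of the 10 genes, with an interval that overlapped that of Iigp1, and with limma on log2(FPKM + 1) Iigp1 was higher (2.06 against 2.00). It was read at 1.01, 1.22 and 2.15 CPM in control and at 15.8, 14.4 and 16.5 CPM in induced libraries. The control libraries were low but above the floor of 3 reads, with an SD of 0.607 CPM around a mean of 1.46. The induced ones were close together. The fold was 10.6 (log2 3.41 ± 0.18, edgeR adjusted p 8.98e-12), from 87 reads in all control libraries and 888 in all induced ones.

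Gbp2 (ENSMUSG00000028270, chr3:142620602-142638008, plus strand), a GBP anchored to membranes by a prenyl lipid, had the lowest fitted rise of the 10. However, its interval overlapped those of Gbp5, Gbp7 and Gbp9, and Gbp5 was lower with limma on FPKM and without induced replicate 3. With limma on log2(FPKM + 1), Gbp6, Gbp7 and Gbp9 were lower too. Levels of Gbp2 were 9.92, 9.16 and 11.3 CPM in control and 16.8, 15.7 and 18.6 CPM in induced libraries. The groups did not overlap, and the log2 fold change was 0.75 ± 0.11, with a 95% interval from 0.53 to 0.97 that lies wholly below the interval of Gbp3, 3.03 to 3.79 (edgeR adjusted p of Gbp2 5.53e-06). Gbp7 (ENSMUSG00000040253, chr3:142530342-142550149, plus strand), which has been tied to control of Toxoplasma, was at 2.28, 3.00 and 3.60 CPM in control and at 7.43, 6.09 and 8.85 CPM in induced libraries. Every induced library was above every control library, and the log2 fold change was 1.33 ± 0.19 (edgeR adjusted p 5.21e-06). Of its exon bases, 11.3% overlap the annotated pseudogene Gm43802 on the same strand, so the Gbp7 values are uncertain to that extent. Gm43802 had 0 reads in all 6 libraries. That count cannot show whether its sequence was transcribed, because how reads in overlapping genes were counted is not known here.

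Gbp5 (ENSMUSG00000105504, chr3:142493978-142522344, plus strand), a GBP known for its part in inflammasome assembly, was the weakest call. It was at 0.861, 1.22 and 1.00 CPM in control and at 1.17, 2.05 and 3.04 CPM in induced libraries. Induced replicate 1 was below control replicate 2, so the groups overlapped. The log2 fold change was 1.02 ± 0.33 (edgeR adjusted p 0.0121) from 17 to 24 reads per control library and 22 to 58 per induced library. Without induced replicate 3 it was 0.65 with an edgeR adjusted p of 0.119, and over all alternatives the adjusted p ran from 0.00114 to 0.119.

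Gbp6 and Gbp9 belong to the Gbp cluster of chromosome 5. Gbp9 (ENSMUSG00000029298, chr5:105077630-105139539, minus strand) was at 4.66, 4.94 and 4.20 CPM in control and at 7.54, 9.98 and 10.4 CPM in induced libraries. The groups did not overlap, and the log2 fold change was 1.02 ± 0.15 (edgeR adjusted p 8.01e-06). Gbp6 (ENSMUSG00000104713, chr5:105270702-105293698, minus strand) was at 1.42, 0.815 and 0.951 CPM in control and at 3.61, 4.31 and 4.45 CPM in induced libraries. All induced values were above all control values, with a log2 fold change of 1.95 ± 0.24 (edgeR adjusted p 1.09e-06). The Gbp6 values are uncertain, because 29.0% of its exon bases overlap Gm43302 on the same strand. In addition, 64.5% of the windows of 100 bases in its transcripts also occur in other genes, mainly Gm43302 and Gbp10. These 2 genes had few reads of their own, 1 for Gm43302 in all libraries and, for Gbp10, 9 in control and 25 in induced libraries. Such counts cannot show how reads of the shared sequence were handled.

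**Figure D3:**
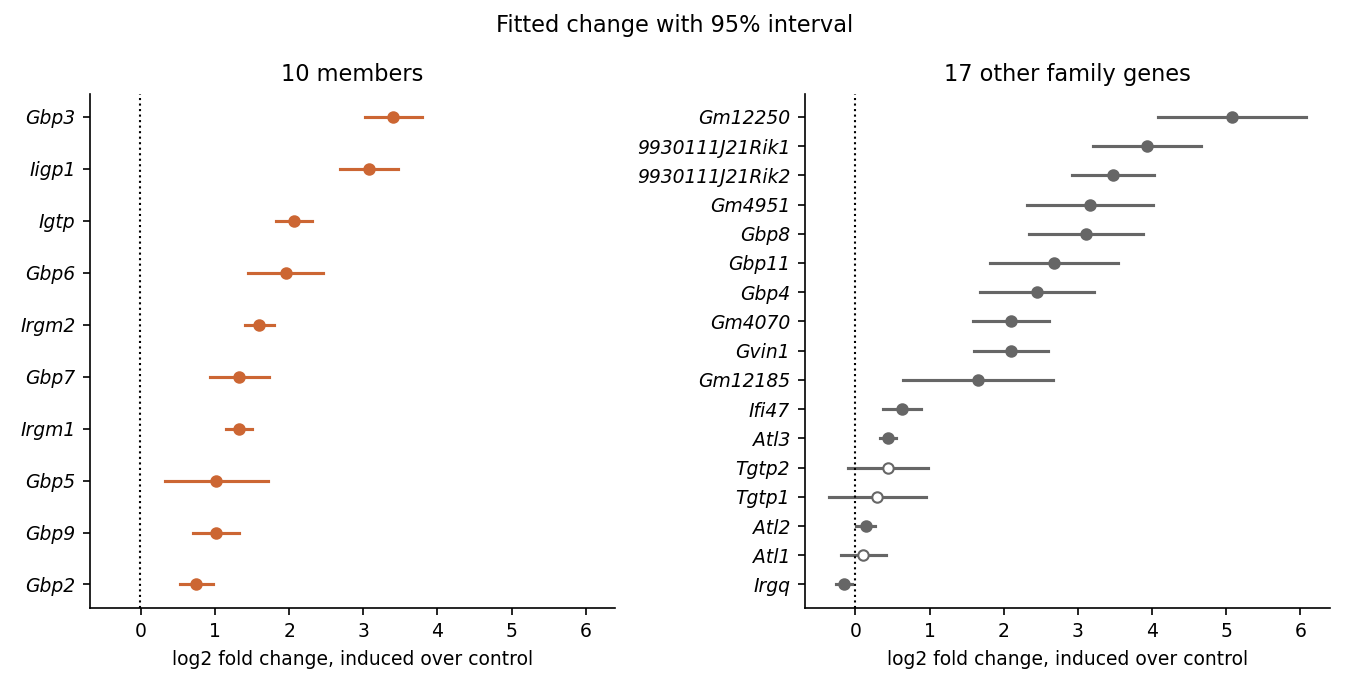
Fitted log2 fold change, induced over control, with its 95% interval for the 10 genes (left) and 17 other family genes and relatives (right). Genes are ordered by size. Filled points passed an edgeR adjusted p of 0.05, and a dotted line marks the median of all tested genes. The 10 run from 0.75 (Gbp2) to 3.41 (Gbp3), while the others run from -0.15 (Irgq) to 5.08 (Gm12250). F830016B08Rik, with 3 control reads, is not drawn.

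Levels of different genes were compared as deposited FPKM (fragments per kilobase of the deposited gene length, scaled to library depth). That length equalled the annotated exon bases of all transcripts together, except for Iigp1 (3121 against 5823 bases). The order rests on these lengths: in induced libraries Irgm2 averaged 33.7 CPM and Igtp 19.8 CPM. Shared sequence also leaves the places of Gbp6, Gbp7, Igtp and Irgm2 uncertain. In control cells the order of mean FPKM was Irgm1 (5.42), Gbp2 (3.99), Irgm2 (2.98), Igtp (2.32), Gbp9 (0.882), Iigp1 (0.743), Gbp7 (0.523), Gbp3 (0.444), Gbp6 (0.177) and Gbp5 (0.154). The first 4 were each separate from the next over the 3 libraries, while Gbp9 overlapped Iigp1, Iigp1 overlapped Gbp7, Gbp7 overlapped Gbp3 and Gbp6 overlapped Gbp5. Of the 10 genes, 6 were under 1 FPKM on average in control cells.

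In induced cells Irgm1 again led at 13.7 FPKM, followed by Igtp (9.79), Irgm2 (9.12), Gbp2 (6.76), Iigp1 (6.36), Gbp3 (4.77), Gbp9 (1.80), Gbp7 (1.33), Gbp6 (0.692) and Gbp5 (0.314). Igtp and Irgm2, Gbp2 and Iigp1, Iigp1 and Gbp3, and Gbp9 and Gbp7 overlapped between libraries. The 10 genes together went from 17.6 ± 0.974 to 54.6 ± 6.98 FPKM (mean ± SD, n = 3), the IRGs from 11.5 ± 0.364 to 39.0 ± 5.65 and the GBPs from 6.17 ± 0.610 to 15.7 ± 1.38. Gbp2 made up 22.6% ± 1.33 of the summed FPKM in control and 12.4% ± 0.845 in induced cells, whereas Iigp1 went from 4.19% ± 0.810 to 11.5% ± 1.41 and Gbp3 from 2.49% ± 0.890 to 8.79% ± 0.804. Irgm1 held the highest share in both groups, 30.7% ± 0.798 and 25.1% ± 0.704.

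**Figure D4:**
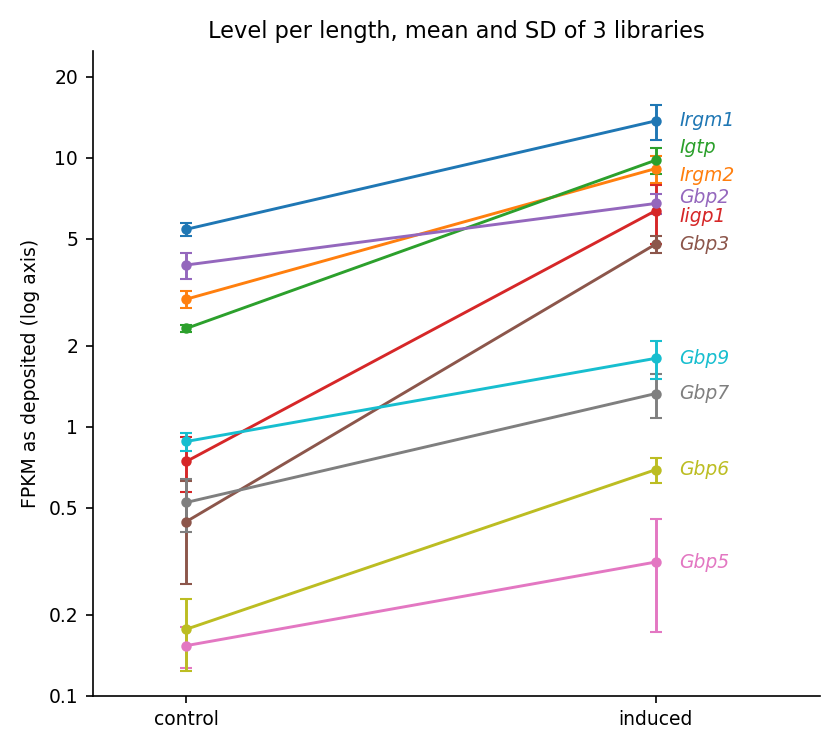
Mean deposited FPKM (log axis) of the 10 genes in control and induced cells, with bars of 1 SD over 3 libraries and a line for each gene. Irgm1 stays at the top and Gbp5 at the bottom, the line of Gbp3 passes those of Gbp7 and Gbp9, and the line of Iigp1 passes that of Gbp9.

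The induced libraries differed in how high the genes stood. Induced replicate 3 held the highest induced value for 10 of the 10 genes, against 28.4% of all tested genes, and the lowest value fell in induced replicate 1 for 6 genes and in induced replicate 2 for 4. The summed level of the 10 was 189.0, 196.5 and 240.4 CPM in induced replicates 1 to 3 and 68.8, 69.4 and 75.3 CPM in control replicates 1 to 3. Without induced replicate 3 the median log2 fold change was 1.36, and 9 of the 10 genes passed, 7 of them at least 2-fold.

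Other genes of the 2 families and their relatives moved in the same direction in most cases. Of 21 listed, 18 were tested, of which 14 rose (13 with DESeq2), 1 fell (0 with DESeq2) and 3 did not pass. Over all tested genes, 32.6% were called higher and 32.2% lower. The median log2 fold change was 2.10, against -0.01 over all tested genes. The 14 include the atlastin genes Atl2 (log2 0.14, edgeR adjusted p 0.048) and Atl3 (0.44). Gbp2b had 0 reads in all 6 libraries. The 3 with the smallest p were the IRG gene 9930111J21Rik2, which went from 0.523 ± 0.208 to 5.86 ± 0.900 CPM (log2 3.47), 9930111J21Rik1, from 0.219 ± 0.127 to 3.42 ± 0.328 CPM (log2 3.93), and Gm12250 (Irgb10), from 0.0841 ± 0.0287 to 3.05 ± 1.05 CPM (log2 5.08). Control levels of Gm12250 lay below the floor of 3 reads in each library. F830016B08Rik had 3 reads in control and 96 in induced libraries, a ratio of 32.5 with a counting interval of 10.8 to 160.4.

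Within the Gbp cluster of chromosome 5, Gbp4 (log2 2.45), Gbp8 (3.11) and Gbp11 (2.68) rose, from 0.404, 0.236 and 0.253 CPM on average in control cells. Gvin1, a very large interferon-inducible GTPase, rose by 2.09, and Ifi47 (Irgd), an effector IRG, rose by 0.63 on the log2 scale. The effector pair Tgtp1 and Tgtp2 (Irgb6) did not pass, with log2 fold changes of 0.29 and 0.44 and edgeR adjusted p-values of 0.425 and 0.147. Irgq, a family member that lacks conserved GTP-binding residues, was at 68.2 ± 1.59 and 61.5 ± 0.705 CPM, and its log2 fold change of -0.15 (edgeR adjusted p 0.0171) did not pass in 6 of the alternatives.

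The nearest tested genes outside the families were looked at on each side of the 5 loci, at distances from 9.76 kb (Trim7) to 965.6 kb (Chsy3). Of these 10 flanking genes, 1 was higher, 3 were lower and 6 did not pass the threshold. Over all tested genes, 32.6% were called higher and 32.2% lower. Next to the Gbp clusters, Lrrc8b (chromosome 5) rose by 0.69 on the log2 scale, and Kyat3 (chromosome 3) had a log2 fold change of -0.50 (edgeR adjusted p 0.0161) that did not pass in 4 of the alternatives. On chromosome 11, Zfp692, 84.3 kb from Irgm2, fell by 0.86. Beside Iigp1, Smim3 fell by 0.90. Gm4841, which RefSeq also names as an Ifgga gene, the IRG subfamily of this locus, is in neither list and was left out of the flanking genes. It went from 0.118 ± 0.0782 to 0.930 ± 0.246 CPM (log2 2.91, edgeR adjusted p 9.11e-05).

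The interferon pathway upstream of these GTPases was counted in 4 lists, to be read against the 32.6% of all tested genes called higher and 32.2% called lower. No interferon gene of the 10 listed had enough reads to be tested: they had 0 reads in control and 4 reads in induced libraries altogether, and Ifng, Ifna1, Ifna2, Ifna4, Ifna5, Ifne and Ifnl3 had 0 in all 6. Of 9 receptor and kinase genes tested, 4 rose, 2 fell and 3 did not pass (median log2 -0.01). Both chains of the interferon gamma receptor rose, Ifngr1 by 0.56 and Ifngr2 by 0.53 on the log2 scale. Jak2, the kinase bound to Ifngr2, was at 119.6, 117.1 and 114.1 CPM in control and at 46.1, 56.4 and 49.5 CPM in induced libraries. That is a 2.31-fold lower level (log2 -1.21 ± 0.07, edgeR adjusted p 1.19e-11).

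Of 10 transcription factors, 8 were tested, of which 4 rose, 2 fell and 2 did not pass (median log2 0.49). Stat2 (log2 1.49) and Irf9 (log2 0.87), parts of the complex that binds the ISRE, were higher in induced cells, as was Irf7 (log2 2.88), a driver of type I interferon responses. Irf1, the factor that interferon gamma induces through a GAS motif and that binds ISRE cores, fell by 0.51, from 52.4 ± 0.775 to 36.7 ± 3.06 CPM (edgeR adjusted p 9.12e-07). Of 9 genes that restrain the pathway, 3 rose, 2 fell and 4 did not pass (median log2 0.07). Usp18, which blocks the type I receptor, rose 33.8-fold from 0.470 ± 0.236 to 16.1 ± 3.11 CPM, while Socs3 and Cish fell by 1.12 and 0.61 on the log2 scale.

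**Figure D5:**
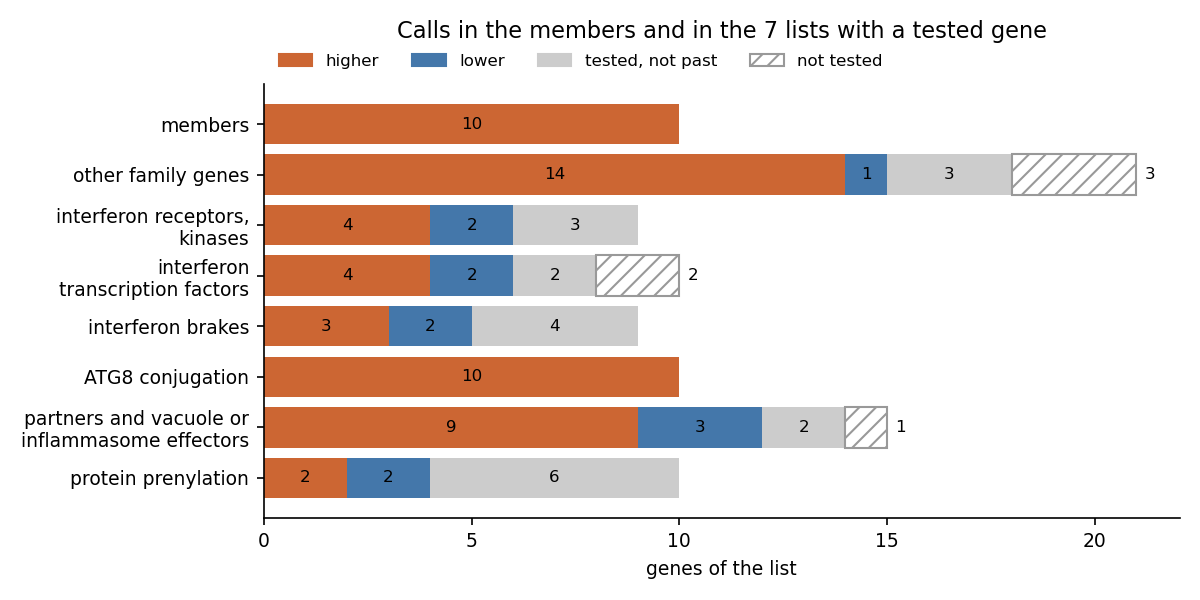
Number of genes called higher, lower or not past an edgeR adjusted p of 0.05, and not tested, among the 10 genes and in the 7 lists of related genes with at least 1 tested gene. All 10 genes and all 10 ATG8 conjugation genes are higher, and the interferon receptor, transcription factor, brake and prenylation lists are mixed.

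GBPs and IRGs are guided to vacuoles by the ubiquitin-like ATG8 conjugation machinery. Counts in this list and in the partner and prenylation lists are also read against the 32.6% of all tested genes called higher and 32.2% called lower. All 10 genes of that list rose, with a median log2 fold change of 0.32, and Gabarapl1 (1.02), Gabarapl2 (0.83) and Map1lc3b (0.36) had the smallest p. Without control replicate 3, 8 of the 10 passed. Of 14 tested partners and downstream effectors, 9 rose, 3 fell and 2 did not pass, with a median log2 fold change of 0.38, also when Casp1 was set at its bound. Rnf213, a ubiquitin ligase that coats intracellular pathogens, rose by 1.26, the ubiquitin adaptor Sqstm1 by 0.57 and the nucleic acid sensor Zbp1 by 1.62 on the log2 scale.

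Within that list, some genes of inflammasomes are given singly. Casp1 had 0 reads in all control libraries and 37, 18 and 25 reads in induced replicates 1 to 3, at least 27.1-fold higher against a floor of 3 reads over the control group. Its adaptor Pycard had 1 read in control and 93 in induced libraries, a ratio of 94.5 with a counting interval of 16.5 to 3771. The pore-forming Gsdmd fell by 0.51 on the log2 scale, and Casp4 (Caspase-11) had a log2 fold change of -0.25 (edgeR adjusted p 0.0283) that did not pass in 5 of the alternatives. The sensor Aim2 did not pass, at 0.674 ± 0.156 CPM in control and 0.702 ± 0.0806 CPM in induced libraries, and Nlrp3 had too few reads to be tested. Of 10 protein prenylation genes, which serve GBPs anchored by a lipid, 2 rose (Ggps1 by 0.60 and Icmt by 0.35 on the log2 scale), 2 fell, among them Fntb by 0.34, and 6 did not pass.

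Immune cells can carry these GTPases at high levels, and their markers were counted in the same libraries. Of 8 leukocyte markers, Ptprc (CD45), Cd52, Tyrobp and Itgam had 0 reads in all 6 libraries, and the summed level was 1.52 to 1.73 CPM in control and 3.56 to 4.57 CPM in induced libraries, with Lcp1 the 1 gene called (log2 3.42). Of 8 macrophage markers, Adgre1, Fcgr1, C1qa and C1qb had 0 reads in all libraries. The summed level of the 8 was 39.6 to 40.4 CPM in control and 69.8 to 77.4 CPM in induced libraries, with Cd68 (log2 3.89), Lyz2 (1.96) and Mertk (0.63) higher and Csf1r (-1.05) lower. Of 8 T cell and natural killer cell markers, 7 had 0 reads and Prf1 had 1. The 8 endothelial markers summed to 9.81 to 11.1 and 12.7 to 13.1 CPM, with Tie1 at 0. Most of that was Egfl7, the 1 gene called (log2 0.37), at 8.63 ± 0.563 CPM in control and 11.1 ± 0.453 CPM in induced libraries. The part of the markers that moved in the GTPase values was not tested.

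The mean profile of the 10 genes, as log2 CPM relative to the control mean, was -0.09, -0.03 and 0.11 in control and 1.54, 1.66 and 1.95 in induced replicates 1 to 3. The 5 other tested genes nearest to it over the 6 libraries were AC173344.1, A830019P07Rik, B2m, Zfp970 and Pdlim1, with root mean square differences of 0.0632 to 0.101 on the log2 scale. B2m, the light chain of MHC class I, was the most abundant of them, at 443.7 ± 14.1 CPM in control and 1476 ± 106.6 CPM in induced libraries (log2 1.73 ± 0.05, edgeR adjusted p 2.42e-15). It was picked by this profile, which includes the rise, so its p-value adds no separate support.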

How the data were processed

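Total RNA from 3 control and 3 induced samples was sequenced. The authors deposited 1 table of raw read counts per gene with FPKM values (counts divided by gene length and a depth of 0.980 to 1.03 times the library total). Per the labels, the submitters' processing notes name the build mm10 and the tools HISAT2 2.0.5, featureCounts 1.5.0-p3 and DESeq2 1.16.1, without their roles; the strand setting is not given in the sources used here. The authors' fold changes, p-values and gene ontology tables were not used.

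Counts were tested with edgeR 4.0.16 (R 4.3.3): TMM scaling, genes kept by filterByExpr (count minimum 10, total minimum 15), quasi-likelihood test over 14246 genes, two-sided, Benjamini-Hochberg adjusted p of 0.05. The kept genes held 99.9% of reads, and the biological coefficient of variation was 5.82%. CPM values are TMM-scaled. On simulated counts for this comparison (14246 genes), 90% of 200 genes changed by 1 on the log2 scale were recovered, and 7.69% of calls were false. Only these 200 genes changed in the simulation, whereas 9225 were called in the data, so the share of false calls may differ there. DESeq2 1.42.0 and limma 3.58.1 on log2(FPKM + pseudocount of 1 or 0.1) were alternatives, with others of scaling, filter, replicate block, an adjusted p of 0.01 and left-out libraries. All 10 members matched GENCODE M21, whose transcripts were cut into windows of 100 bases to find shared sequence. RefSeq promoter windows matched 7 of the 10.

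The members and lists were chosen with earlier results of these data known. The genes named were the 10 members, the 3 genes of each related list with the smallest p, the list genes with 0 reads in all libraries, and the 5 genes nearest the mean profile. Other genes were named after their values were seen. A gene that the rule names is not reported here.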

Additional observations from a re-analysis of the deposited data

How the results depend on the processing

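The 10 GTPase genes were computed under DESeq2, 2 other scalings, 2 other filters, limma on FPKM with 2 pseudocounts, the replicate block, an adjusted p of 0.01 and 6 left-out libraries, and Igtp and Irgm2 also with their counts summed. None of these 152 values changed direction, and 4 lost their call, all of Gbp5 (limma on log2(FPKM + 1), log2 0.18, and on log2(FPKM + 0.1), 0.65; the adjusted p of 0.01; and without induced replicate 3). With limma on log2(FPKM + 1), where a pseudocount shrinks changes of low genes, 5 members were at least 2-fold higher and their median log2 fold change was 0.91. Members at least 2-fold higher numbered 7 with library totals alone and 7 to 9 with 1 library left out, with medians of 1.36 to 1.57. The 1 related gene called lower, Irgq, was lost (0 called) under DESeq2, without a filter, at an adjusted p of 0.01 and without control replicate 1, control replicate 2 or induced replicate 3, a range of 0 to 1 over left-out libraries. The causes were not tested. Of 1110 values of the 74 genes followed singly under these settings, none changed direction and 27 crossed the threshold, of Gbp5, Irgq, Casp4, Eng, Kyat3, Tgtp2 and Trim21. Some genes named above, such as Atl2, were not among the 74. The edgeR adjusted p of Atl2, 0.048, does not pass 0.01. Genes changed in all numbered 9225, with 7783 at an adjusted p of 0.01 and 9765 without a filter. Libraries sharing a replicate number did not deviate together (correlations of -0.00, -0.02 and 0.03). With 3 libraries in each group this cannot show whether the numbers pair the samples, and the main test left them unpaired. With the replicate block, 9063 genes changed, 10 members were higher, 8 of them at least 2-fold, and the median was 1.46. At these depths Gbp5, Gbp6 and Gbp3 rested on as few as 16 reads in a library.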
